A study of Homo sapiens with 24 samples.

Results

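Class II and class IV histone deacetylase (HDAC) genes were followed across 24 RNA-seq libraries of human osteosarcoma cells. The members were the 7 genes HDAC4, HDAC5, HDAC7 and HDAC9 (class IIa), HDAC6 and HDAC10 (class IIb) and HDAC11 (class IV), found by their symbol among the 57820 genes of each deposited table, 1 row each. Libraries fell into 8 groups of 3 biological replicates. AID-DIvA U2OS cells, which carry the AsiSI restriction enzyme for induced DNA breaks, were either wild-type (WT) or lacked ID3 through a knockout (ID3-KO). They were left untreated, or received mocetinostat over 24 h followed by 24 h in medium without it (recovered). U2OS cells, WT or ID3-KO, were either untreated or treated with mocetinostat, and from the study's methods they were taken to be at the end of treatment, without recovery. The labels give no dose and name no induction of breaks for these libraries, and the sources used here do not say whether each ID3-KO line is 1 clone.

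Recovery and the cell line label coincided, so that the stage and the line cannot be told apart, and the library names of the U2OS set also carry the word DivA. In all 12 AID-DIvA samples the labels disagree with themselves, the treatment entry giving the opposite of the sample title. The titles were followed, and every direction given for AID-DIvA cells rests on them. ID3, the targeted gene, was still counted in ID3-KO libraries but was lower than in WT in all 4 genotype comparisons, at 0.677 of the WT level in untreated AID-DIvA cells, 0.539 after recovery, 0.489 in untreated U2OS cells and 0.433 in treated U2OS cells. Total counts lay between 37878751 and 76906266 per library. Of the osteoblast-lineage markers, COL1A1 (244 to 821 TPM) and SPARC (524 to 1030 TPM) were abundant while COL1A2 and SP7 stayed below 0.5 TPM, and among markers of other cell types EPCAM was counted at 5.41 to 14.5 TPM and PTPRC, ALB and MYH7 stayed below 0.5 TPM in every library. Replicate 1 of untreated WT U2OS stood apart: the median absolute log2 difference per gene from its sister libraries was 0.258 and 0.260, against 0.0510 between those 2 libraries. Replicate 1 of recovered WT AID-DIvA (0.105 and 0.118) and of recovered ID3-KO AID-DIvA (0.151 and 0.178) also stood off from sisters that differed by 0.0475 and 0.0522. So did replicate 3 of untreated ID3-KO AID-DIvA (0.100 and 0.116), whose sisters differed by 0.0508.

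HDACs remove acetyl groups from lysines of histones and other proteins. Class IIa enzymes have weak catalytic activity of their own. They shuttle between nucleus and cytoplasm, where phosphorylation by CaMK, PKD, SIK and MARK family kinases creates docking sites for 14-3-3 proteins, and in the nucleus they bind MEF2 transcription factors and bring in the NCoR and SMRT corepressor complexes. Class IIb holds HDAC6, a cytoplasmic deacetylase of tubulin and cortactin that also gathers ubiquitinated proteins into the aggresome, and HDAC10, a deacetylase of polyamines. HDAC11, the single class IV enzyme, mainly removes long-chain acyl groups. Mocetinostat is a benzamide that inhibits class I enzymes, and HDAC11 to a lesser degree. ID3 is a helix-loop-helix protein without a DNA-binding domain, which holds E proteins off their E-box sites.

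The promoters of HDAC7, HDAC9, HDAC6 and HDAC11, which passed in the same direction in both genotypes of at least 1 line, are shown so that their base composition and motifs can be seen beside the values. RefSeq (GRCh38.p14) gave start windows for 6 of the 7 members and none was matched for HDAC5. For each gene the window of its most upstream start was taken, and the 250 bases before that start were read 5' to 3'. Capitals mark matches, on either strand, to the GC box GGGCGG, bound by SP family factors, or to the E-box CANNTG. The MEF2 consensus was searched as well.
HDAC7, chr12:47819904-47820153, minus strand: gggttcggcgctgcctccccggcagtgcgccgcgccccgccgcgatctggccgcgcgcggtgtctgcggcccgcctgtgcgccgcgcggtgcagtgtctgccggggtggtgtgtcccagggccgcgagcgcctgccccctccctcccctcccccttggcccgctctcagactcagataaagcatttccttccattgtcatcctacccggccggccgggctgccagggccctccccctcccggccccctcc
HDAC9, chr7:18086575-18086824, plus strand: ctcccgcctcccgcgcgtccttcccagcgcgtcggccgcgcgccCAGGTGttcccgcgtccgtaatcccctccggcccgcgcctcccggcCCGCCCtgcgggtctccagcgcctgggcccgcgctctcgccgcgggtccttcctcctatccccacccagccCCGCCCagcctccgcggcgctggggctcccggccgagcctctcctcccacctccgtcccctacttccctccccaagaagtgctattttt
HDAC6, chrX:48801148-48801397, plus strand: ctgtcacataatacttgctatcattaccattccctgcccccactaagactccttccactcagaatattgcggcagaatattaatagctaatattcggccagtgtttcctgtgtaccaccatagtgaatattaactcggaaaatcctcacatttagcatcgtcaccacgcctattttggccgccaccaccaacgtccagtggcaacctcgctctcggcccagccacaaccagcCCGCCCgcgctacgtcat
HDAC11, chr3:13480056-13480305, plus strand: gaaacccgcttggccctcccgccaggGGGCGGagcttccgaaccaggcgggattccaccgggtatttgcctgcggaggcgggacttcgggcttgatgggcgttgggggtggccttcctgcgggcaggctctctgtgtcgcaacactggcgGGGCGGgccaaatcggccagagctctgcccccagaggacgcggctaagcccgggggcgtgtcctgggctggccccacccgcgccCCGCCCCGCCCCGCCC
The HDAC7 window held no match to any of the 3 motifs and was 75.6% G and C. The HDAC9 window held 2 GC boxes and 1 E-box at 75.2% G and C, the HDAC6 window 1 GC box and the lowest share of G and C of the 4 windows printed, and the HDAC11 window 5 GC boxes at 73.6%, of which the last 3 overlap each other by their end bases. HDAC6 and HDAC9 have further starts with unlike windows. Those of HDAC6 held 2 GC boxes at 64.4% G and C, and 3 GC boxes and 1 E-box at 67.2%. Those of HDAC9 held E-boxes but no GC box, at 38.4% to 48.0%. No window of any of the 6 members held the MEF2 consensus. Among 35116 RefSeq windows of the same length, 42.6% held a GC box, 61.8% an E-box and 2.80% the MEF2 consensus. These matches describe letters and not occupied sites.

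All 7 members were counted in every library and all 7 passed the filter on low counts in every comparison. Levels between genes were compared per length, as the deposited TPM values, which are scaled by transcript length and library size. By median TPM over the 24 libraries the order was HDAC7 (57.8), HDAC5 (37.1), HDAC6 (30.5), HDAC11 (12.9), HDAC9 (7.01), HDAC10 (1.89) and HDAC4 (0.945). Class I genes on the same scale ranged from 16.7 TPM for HDAC8 to 155 TPM for HDAC1. HDAC4 and HDAC10 rested on 131 to 396 and 112 to 327 counts per library, the other members on 804 or more. HDAC10 shares 5956 bases with MAPK12 on the same strand, where reads can be assigned to either gene or to none. Its place in this order carries that limit. In the following, levels of a gene are CPM values (counts scaled by library size) with TMM scaling over the 24 libraries, and differences are log2 fold changes ± standard error from the quasi-likelihood test of edgeR, with p-values adjusted by Benjamini-Hochberg over all genes of the comparison. The number of replicates was 3 per group throughout. In these bulk libraries fewer cells with a transcript and less transcript per cell cannot be told apart.

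**Figure D1:**
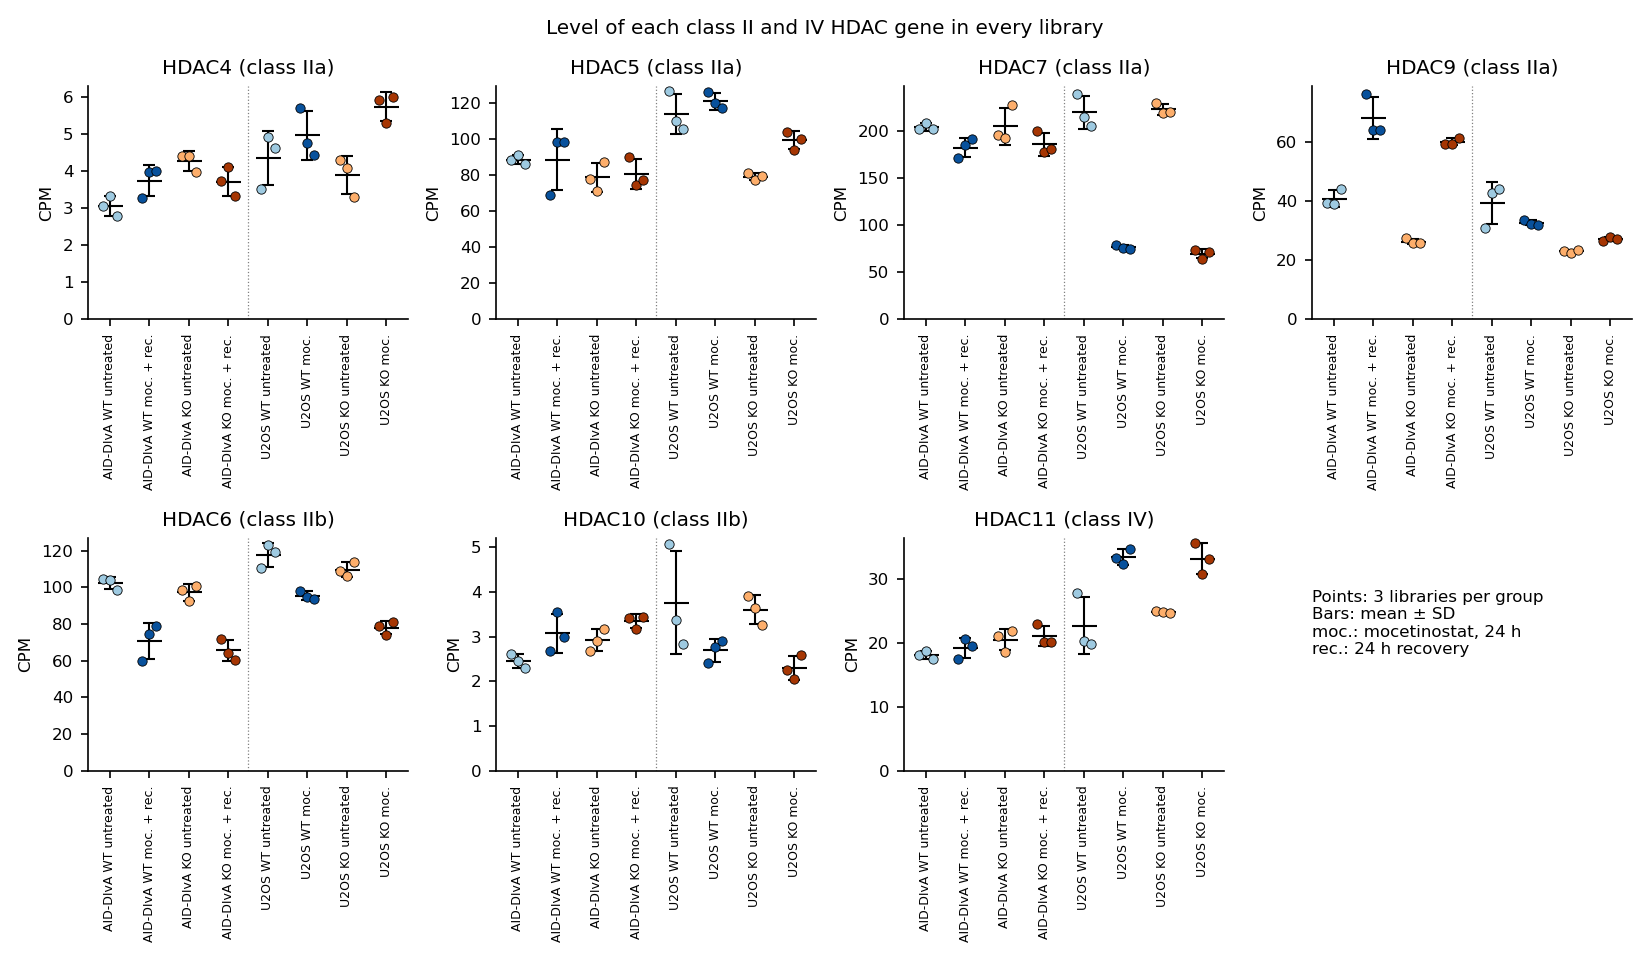
Level of each member in every library, in CPM, with the mean and SD of the 3 libraries of each of the 8 groups. HDAC7 lies between 64.3 and 79.6 CPM in the 6 libraries treated without recovery and at 171.5 CPM or more in all others, and HDAC9 lies at 59.4 CPM or more in the recovered AID-DIvA libraries and at 44.2 CPM or less elsewhere.

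HDAC7, a class IIa enzyme best known from thymocytes and endothelium (ENSG00000061273.13, GRCh37 chromosome 12, 48176505 to 48226915, minus strand), was the member with the largest treatment difference before recovery. Untreated WT U2OS libraries held 239.5, 215 and 206 CPM and treated ones 79.6, 75.7 and 75.3 CPM. Untreated ID3-KO U2OS libraries held 230.0, 219 and 221 CPM and treated ones 73.4, 64.3 and 72.0 CPM. The treated and untreated libraries were far apart in both genotypes. HDAC7 fell by 1.51 ± 0.08 on the log2 scale in WT (adjusted p = 7.5e-06) and fell by 1.67 ± 0.05 in ID3-KO U2OS cells (adjusted p = 4.3e-18), to 0.351 and 0.314 of the untreated level. In the recovered AID-DIvA cells the level was close to that of untreated cells. WT libraries held 202, 209 and 202 CPM untreated and 171.5, 185 and 192 CPM recovered, a fall by 0.15 ± 0.05 (adjusted p = 0.016) with no overlap of the libraries. That call was lost when replicate 2 of the untreated group was left out and when all 4 AID-DIvA groups were fitted together, where the adjusted p reached 0.081. ID3-KO libraries held 196, 192.5 and 228 CPM untreated and 200.2, 178 and 181 CPM recovered, which overlapped, with a difference of -0.14 ± 0.08 (adjusted p = 0.17). Untreated replicate 3 (228 CPM) and recovered replicate 1 (200.2 CPM) are the libraries that stood off. In the order of group means the 2 treated U2OS groups came last and did not overlap with any other. On the opposite strand HDAC7 shares 32 bases at its end with SLC48A1 and overlaps AC004466.1 and RP5-1057I20.2. Counts of the reverse strand alone gave the same HDAC7 calls in all 4 treatment comparisons.

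HDAC9, the class IIa member whose shorter product lacks the deacetylase domain (ENSG00000048052.17, GRCh37 chromosome 7, 18126572 to 19042039, plus strand), was the member with the largest difference after recovery. WT AID-DIvA libraries held 39.4, 39.2 and 44.1 CPM untreated and 76.3, 64.0 and 64.1 CPM recovered. ID3-KO AID-DIvA libraries held 27.4, 25.9 and 25.8 CPM untreated and 59.4, 59.4 and 61.5 CPM recovered. Recovered and untreated libraries did not overlap in either genotype. The ID3-KO libraries lay below the WT ones in the untreated and in the recovered groups, also without overlap. HDAC9 rose by 0.75 ± 0.07 in WT (adjusted p = 1.8e-06) and by 1.19 ± 0.07 in ID3-KO cells (adjusted p = 1.1e-06), that is 1.68-fold and 2.29-fold. Both calls held in every alternative tried, except that the WT value does not reach a log2 change of 1. Without recovery the picture differed. WT U2OS libraries held 31.1, 42.7 and 44.2 CPM untreated, of which the first is the library that stood apart, and 33.6, 32.4 and 32.0 CPM treated, a difference of -0.26 ± 0.13 (adjusted p = 0.14). Without replicate 1 of the untreated group the difference was -0.40 ± 0.05 and passed (adjusted p = 1.1e-10). ID3-KO U2OS libraries held 23.2, 22.4 and 23.5 CPM untreated and 26.6, 27.7 and 27.1 CPM treated, a rise of 0.24 ± 0.05 (adjusted p = 2.8e-04) without overlap, which missed the threshold when all 4 U2OS groups were fitted together (adjusted p = 0.055).

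HDAC5, a signal-responsive repressor best studied in heart and muscle (ENSG00000108840.11, GRCh37 chromosome 17, 42154114 to 42201070, minus strand), was the second most abundant class IIa transcript in untreated cells. In ID3-KO U2OS cells it rose from 81.1, 77.3 and 79.4 CPM to 104, 94.4 and 100.1 CPM, by 0.34 ± 0.05 (adjusted p = 1.1e-06), with no overlap. In WT U2OS cells 127, 110.5 and 106 CPM untreated stood beside 126, 120.3 and 117 CPM treated, which overlapped, with a difference of 0.09 ± 0.09 (adjusted p = 0.42). Without replicate 1 of the untreated group this difference was 0.17 ± 0.04 (adjusted p = 7.5e-05). After recovery no difference passed in either genotype. WT AID-DIvA libraries held 88.5, 91.3 and 86.5 CPM untreated and 69.1, 98.4 and 98.8 CPM recovered, a difference of 0.01 ± 0.13 (adjusted p = 0.97). The recovered library at 69.1 CPM is the replicate 1 that stood off, and without it the difference was 0.16 ± 0.04 (adjusted p = 2.1e-04). ID3-KO AID-DIvA libraries ran from 71.2 to 87.7 CPM untreated and from 74.9 to 90.2 CPM recovered. The untreated library at 87.7 CPM (replicate 3) and the recovered one at 90.2 CPM (replicate 1) are those that stood off.

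HDAC4, a repressor of chondrocyte hypertrophy and muscle genes (ENSG00000068024.12, GRCh37 chromosome 2, 239969864 to 240323348, minus strand), was the member with the lowest median TPM. In ID3-KO U2OS cells it rose from 4.29, 4.07 and 3.30 CPM to 5.92, 5.28 and 5.99 CPM, by 0.57 ± 0.11 (adjusted p = 4.6e-05), with no overlap. In WT U2OS cells 3.52, 4.92 and 4.61 CPM untreated overlapped with 5.70, 4.76 and 4.43 CPM treated (0.20 ± 0.16, adjusted p = 0.34). In WT AID-DIvA cells 3.05, 3.33 and 2.78 CPM untreated stood beside 3.27, 3.96 and 3.99 CPM recovered, which overlapped. The difference of 0.30 ± 0.12 passed narrowly (adjusted p = 0.049) and failed in 9 of 12 alternatives, among them those without replicate 2 or 3 of the recovered or replicate 1 or 3 of the untreated group (0.23 to 0.39, adjusted p = 0.0037 to 0.20 over all 12). In ID3-KO AID-DIvA cells 4.416, 4.416 and 3.967 CPM untreated overlapped with 3.735, 4.093 and 3.318 CPM recovered. The difference there was -0.19 ± 0.11 (adjusted p = 0.18).

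Within class IIa the shares of the 4 genes differed between treated and untreated groups. Summed over the 4 genes, WT U2OS cells held 131 ± 4.05 TPM (SD) untreated and 93.0 ± 2.30 TPM treated, and ID3-KO U2OS cells 114 ± 4.45 and 76.7 ± 3.45 TPM. HDAC7 made up 55.6% ± 0.546 of that sum in untreated and 29.8% ± 0.237 in treated WT U2OS cells, and 65.1% ± 0.234 and 31.7% ± 0.702 in ID3-KO ones. HDAC5 took the first place under treatment, with 61.3% ± 0.202 in WT and 59.0% ± 0.417 in ID3-KO U2OS cells. In AID-DIvA cells HDAC7 was first in untreated and recovered groups alike, and no AID-DIvA group was treated without recovery. The share of HDAC9 after recovery was 11.9% ± 2.30 against 6.97% ± 0.549 in untreated WT AID-DIvA cells and 10.8% ± 0.809 against 4.78% ± 0.487 in ID3-KO ones. These sums and shares are descriptions on the TPM scale and were not tested. The sums carry no TMM scaling, so their group differences can depart from those of the CPM values and tests. Shares within a library do not depend on such scaling.

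**Figure D2:**
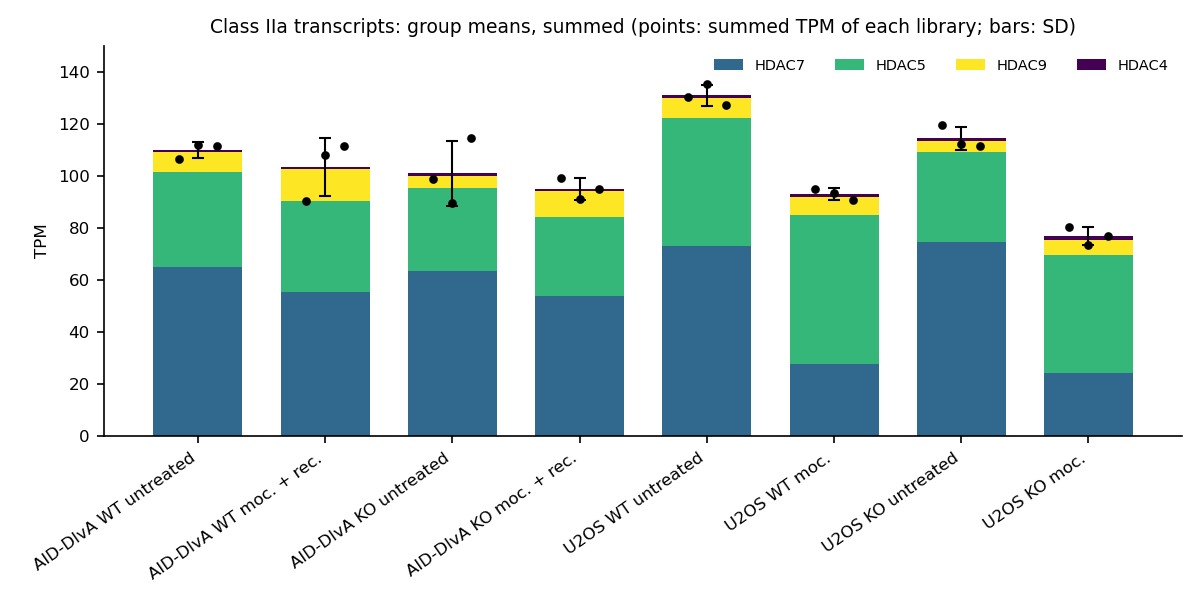
Mean TPM of the 4 class IIa genes stacked for each of the 8 groups, with the summed TPM of each library as points and its SD as bars. The HDAC7 part shrinks from 72.8 to 27.7 TPM in WT and from 74.5 to 24.4 TPM in ID3-KO U2OS cells, while the HDAC9 part is widest in the recovered AID-DIvA groups. These TPM values carry no TMM scaling.

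HDAC6, the tubulin deacetylase of class IIb (ENSG00000094631.14, GRCh37 chromosome X, 48659784 to 48683392, plus strand), was the one member that passed as lower after mocetinostat in all 4 treatment comparisons. WT AID-DIvA libraries held 104.5, 104 and 98.4 CPM untreated and 60.0, 74.3 and 78.7 CPM recovered. ID3-KO AID-DIvA libraries held 98.5, 92.4 and 101 CPM untreated and 72.1, 64.4 and 60.5 CPM recovered. The groups did not overlap in either genotype. HDAC6 fell by 0.52 ± 0.08 in WT (adjusted p = 4.0e-04) and by 0.57 ± 0.07 in ID3-KO AID-DIvA cells (adjusted p = 2.1e-04). In U2OS cells without recovery, WT libraries held 110.4, 123.1 and 119 CPM untreated and 98.2, 94.7 and 93.5 CPM treated. ID3-KO libraries held 109, 106 and 114 CPM untreated and 78.8, 74.3 and 81.0 CPM treated. Again no library of a treated group reached an untreated one. The fall was 0.29 ± 0.07 in WT (adjusted p = 0.011) and 0.48 ± 0.05 in ID3-KO U2OS cells (adjusted p = 3.5e-09), and the WT call was lost without replicate 2 or without replicate 3 of the treated group (adjusted p up to 0.068). No other gene of the deposited annotation overlaps HDAC6.

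HDAC10, the polyamine deacetylase (ENSG00000100429.13, GRCh37 chromosome 22, 50683612 to 50689834, minus strand), lies almost wholly within MAPK12 on the same strand, over 5956 bases, so that reads of the pair can be assigned to either gene or to none and strand does not separate them. ID3-KO U2OS libraries held 3.90, 3.64 and 3.26 CPM untreated and 2.25, 2.05 and 2.59 CPM treated. HDAC10 fell there by 0.63 ± 0.12 (adjusted p = 8.5e-05), without overlap. WT U2OS libraries held 5.06, 3.38 and 2.84 CPM untreated and 2.42, 2.76 and 2.91 CPM treated, a difference of -0.47 ± 0.22 (adjusted p = 0.11), which was -0.21 ± 0.14 (adjusted p = 0.18) without the untreated replicate 1. It passed without untreated replicate 3, with all 4 U2OS groups in one fit and with counts of the reverse strand (-0.65 ± 0.21, adjusted p = 0.036). In WT AID-DIvA cells 2.61, 2.46 and 2.29 CPM untreated stood beside 2.67, 3.55 and 3.0 CPM recovered, just clear of each other, a rise of 0.33 ± 0.13 that passed narrowly (adjusted p = 0.048) and was lost in 7 of 12 alternatives, among them each leave-one-out fit except that without the recovered replicate 1 (0.22 to 0.42, adjusted p = 0.0048 to 0.20 over all 12). In ID3-KO AID-DIvA cells the difference was 0.20 ± 0.11 (adjusted p = 0.18), and with counts of the reverse strand it passed (adjusted p = 0.044). MAPK12 itself held 82.1 to 84.3 CPM in untreated and 45.9 to 51.5 CPM in treated ID3-KO U2OS libraries, and 60.3 to 62.4 CPM in untreated and 72.3 to 77.1 CPM in recovered WT AID-DIvA libraries. Its part in the HDAC10 values was not tested.

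HDAC11, the class IV enzyme (ENSG00000163517.10, GRCh37 chromosome 3, 13521224 to 13547916, plus strand), was higher under mocetinostat without recovery. WT U2OS libraries held 27.8, 20.3 and 19.9 CPM untreated and 33.3, 32.3 and 34.7 CPM treated. ID3-KO U2OS libraries held 24.9, 24.8 and 24.7 CPM untreated and 35.6, 30.7 and 33.2 CPM treated. No treated library fell to the level of an untreated one, although untreated WT replicate 1 lay well above its sisters. HDAC11 rose by 0.57 ± 0.14 in WT (adjusted p = 0.010) and by 0.43 ± 0.06 in ID3-KO U2OS cells (adjusted p = 6.2e-07), and in WT by 0.74 ± 0.05 without that library (adjusted p = 1.8e-17). After recovery the differences were 0.09 ± 0.07 in WT (adjusted p = 0.29), which passed at 0.16 ± 0.06 without recovered replicate 1 (adjusted p = 0.019), and 0.04 ± 0.08 in ID3-KO AID-DIvA cells (adjusted p = 0.75).

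Counted over the 7 members, 3 were higher and 2 lower after recovery in WT AID-DIvA cells, where 23.9% of 20289 tested genes were higher and 23.0% lower. The count of 5 became 7 without recovered replicate 1, where 52.5% of genes passed, and 3 without any other single library, where 38.6% to 43.0% did. In ID3-KO AID-DIvA cells 1 was higher and 1 lower, against 20.2% and 19.9% of 20362 genes. In WT U2OS cells 1 was higher and 2 lower, against 26.0% and 22.9% of 21797 genes. This count of 3 became 5 without untreated replicate 1, where 66.4% of genes passed, and 2 without treated replicate 2 or without treated replicate 3, where 36.4% and 36.2% did. In ID3-KO U2OS cells 4 were higher and 3 lower, against 35.8% and 34.0% of 21176 genes, and all 7 passed in each leave-one-out fit. A change beyond 1 on the log2 scale was reached by no member in WT AID-DIvA cells, where 4.86% of genes rose and 2.52% fell that far. It was reached by HDAC9 upward in ID3-KO AID-DIvA cells (4.90% of genes up, 2.56% down), and by HDAC7 downward in WT U2OS (13.6% up, 5.06% down) and ID3-KO U2OS cells (14.6% up, 5.77% down). The members' median log2 change was 0.09, 0.03, -0.26 and 0.24 in these 4 comparisons, and that of all tested genes lay between -0.02 and 0.01.

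**Figure D3:**
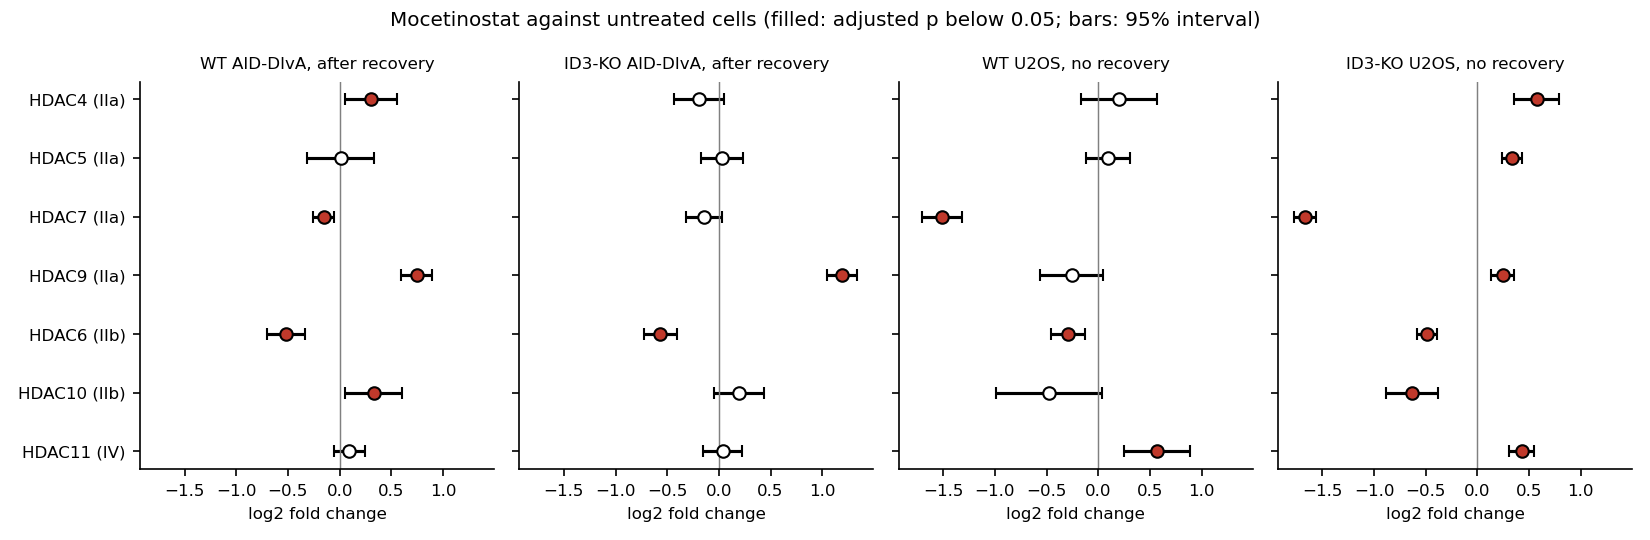
Log2 fold change of each member between mocetinostat-treated and untreated cells in the 4 treatment comparisons, with 95% intervals. Filled points passed at an adjusted p below 0.05; HDAC6 is filled and left of 0 in all 4 panels, HDAC7 is far left only without recovery and HDAC9 far right only after it.

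Whether ID3 loss went with other levels was asked in each line, untreated and treated. These comparisons share libraries with the treatment comparisons and are not independent of them. In untreated AID-DIvA cells HDAC9 was lower in ID3-KO than in WT, with a log2 difference of -0.66 ± 0.06 (adjusted p = 1.4e-07) and HDAC4 was higher, at 0.46 ± 0.10 (adjusted p = 0.0014), both without overlap of the libraries listed above. HDAC5 was lower, at -0.19 ± 0.07 (adjusted p = 0.032), with libraries that overlapped. That HDAC5 call was lost in 6 of 12 alternatives, namely without any 1 of the 3 untreated WT libraries, without untreated ID3-KO replicate 1 or 2, and with all 4 groups in one fit (-0.29 to -0.12, adjusted p up to 0.25). In this comparison 18.6% of 20441 genes were higher and 18.1% lower in ID3-KO cells. The count of 3 was 5 without untreated ID3-KO replicate 3, when HDAC6 and HDAC7 passed as well and 44.4% of genes did, and 2 without untreated ID3-KO replicate 1 or any 1 of the WT libraries, where 28.0% to 30.1% of genes did.

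In untreated U2OS cells HDAC9 was lower at -0.77 ± 0.13 (adjusted p = 0.0084) and HDAC5 at -0.53 ± 0.09 (adjusted p = 0.0069), again without overlap, against 6.56% of 20621 genes higher and 8.63% lower. Leaving out ID3-KO replicate 2 ended both calls, leaving out ID3-KO replicate 1 that of HDAC9 and leaving out ID3-KO replicate 3 that of HDAC5 (adjusted p up to 0.054 and 0.053). Without WT replicate 1 the values were -0.92 ± 0.05 for HDAC9 and -0.45 ± 0.04 for HDAC5, and 6 members passed, where 41.1% of genes did. HDAC9 was thus lower in untreated ID3-KO than in untreated WT cells of both lines, at 0.633 of the WT level in AID-DIvA and 0.585 in U2OS cells.

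After mocetinostat and recovery no member passed between ID3-KO and WT AID-DIvA cells with edgeR's quasi-likelihood test, nor with DESeq2, and 1 member, HDAC9, had an unadjusted p below 0.05 (-0.20 ± 0.08, adjusted p = 0.10). The 95% interval of its difference ran from -0.37 to -0.02, and it passed in edgeR when all 4 AID-DIvA groups were fitted together (adjusted p = 0.033). Of 20100 genes 12.6% were higher and 11.1% lower at an adjusted p below 0.05. The share at an unadjusted p below 0.05 is not given here. Without recovered WT replicate 1 HDAC5 passed at -0.31 ± 0.08 (adjusted p = 0.023). In treated U2OS cells 4 members passed and all were lower in ID3-KO cells, against 19.0% of 21800 genes higher and 19.0% lower. The log2 difference was -0.28 ± 0.05 (adjusted p = 1.4e-05) for HDAC5, -0.29 ± 0.05 (adjusted p = 8.8e-06) for HDAC6, -0.27 ± 0.05 (adjusted p = 1.9e-04) for HDAC9 and -0.14 ± 0.05 (adjusted p = 0.032) for HDAC7. For each of these 4 the highest ID3-KO library lay below the lowest WT one. The HDAC9 call was lost with all 4 U2OS groups in one fit (adjusted p = 0.076), and HDAC4, at 0.21 ± 0.10 (adjusted p = 0.095), passed without WT replicate 1 or ID3-KO replicate 2. The HDAC7 difference passed in 6 of 12 alternatives only (-0.17 to -0.08, adjusted p up to 0.20 over all 12). It was lost without any 1 of the WT libraries or ID3-KO replicate 2, with reverse-strand counts and with all 4 U2OS groups in one fit.

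**Figure D4:**
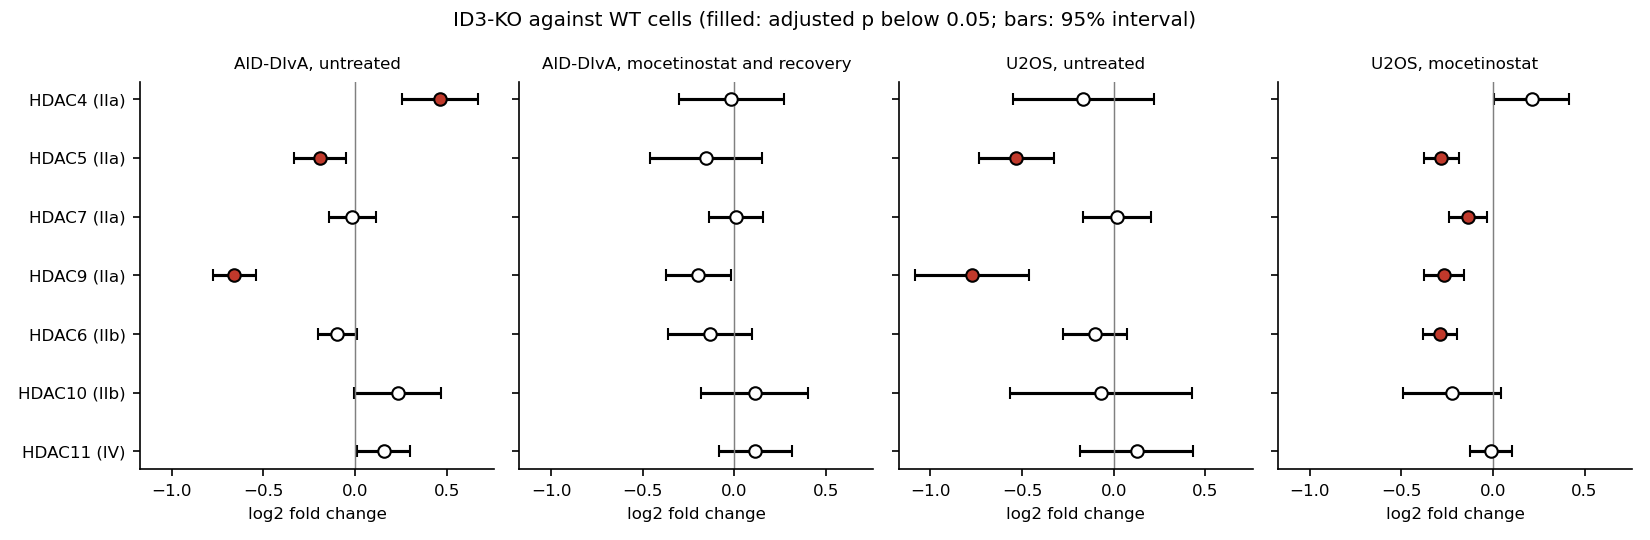
Log2 difference of each member between ID3-KO and WT cells in 4 settings, with 95% intervals. Filled points passed at an adjusted p below 0.05; HDAC9 is left of 0 in all 4 panels and filled in all but recovered AID-DIvA cells, where its interval ran from -0.37 to -0.02.

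The difference between the genotypes in their response was tested as an interaction. In AID-DIvA cells HDAC9 alone passed, with a response larger in ID3-KO than in WT cells by 0.45 ± 0.10 on the log2 scale (adjusted p = 0.035), where 1.21% of 21265 genes passed. It did so in 6 of 17 alternatives. The call was lost when any 1 of 10 of the 12 libraries was left out, the exceptions being replicate 1 of either recovered group, and with the replicate number as a block, while the value stayed between 0.40 and 0.54 (adjusted p = 0.0012 to 0.12). In U2OS cells no member passed with edgeR's quasi-likelihood test, against 2.15% of 22647 genes. There 3 members had an unadjusted p below 0.05 and HDAC9 had a value of 0.50 ± 0.14 (adjusted p = 0.095). The share of all genes at that unadjusted threshold is not given here, so the count of 3 cannot be set against 2.15%. HDAC9 was the 1 member that passed with DESeq2, and also in edgeR without the filter on low counts. Without untreated WT replicate 1, HDAC4 (0.51 ± 0.16, adjusted p = 0.034), HDAC7 (-0.22 ± 0.06, adjusted p = 0.020), HDAC9 (0.65 ± 0.07, adjusted p = 1.7e-08) and HDAC11 (-0.32 ± 0.08, adjusted p = 0.0063) passed, where 9.03% of genes did.

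The response after recovery in AID-DIvA cells was set against the response without recovery in U2OS cells in one fit of all 24 libraries. In WT cells 4 members differed, against 45.4% of 23087 genes, and in ID3-KO cells 5, against 46.0%. The response of HDAC7 was higher in the recovered set by 1.36 ± 0.10 in WT (adjusted p = 4.3e-11) and 1.54 ± 0.10 in ID3-KO cells (adjusted p = 4.0e-12), that of HDAC9 by 1.005 ± 0.13 (adjusted p = 4.2e-07) and 0.95 ± 0.13 (adjusted p = 1.1e-06), and that of HDAC10 by 0.81 ± 0.22 (adjusted p = 0.0044) and 0.84 ± 0.22 (adjusted p = 0.0032). That of HDAC11 was lower, at -0.48 ± 0.14 in WT (adjusted p = 0.0065) and -0.38 ± 0.14 in ID3-KO cells (adjusted p = 0.026). HDAC4 differed in ID3-KO cells (-0.76 ± 0.19, adjusted p = 0.0015) and not in WT cells (0.10 ± 0.19, adjusted p = 0.70). HDAC6 differed in neither, with intervals from -0.46 to 0.00 in WT and from -0.31 to 0.15 in ID3-KO cells, although its WT value passed without recovered WT replicate 3 (adjusted p = 0.034). HDAC5 passed in ID3-KO cells (-0.30 ± 0.14, adjusted p = 0.097 with all libraries) when replicate 1 of either recovered group was left out. The ID3-KO call of HDAC11 was lost when any 1 of 6 libraries was left out, namely recovered replicates 2 and 3, untreated replicates 1 and 3 of AID-DIvA ID3-KO, untreated replicate 2 and treated replicate 1 of U2OS ID3-KO (-0.45 to -0.33, adjusted p up to 0.073).

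The untreated cells of both sets also differed. In WT cells 5 members were lower in AID-DIvA than in U2OS cells, against 40.0% of genes passing in either direction, with HDAC10 at -0.62 ± 0.16 (adjusted p = 0.0024), HDAC4 at -0.51 ± 0.13 (adjusted p = 0.0036), HDAC5 at -0.36 ± 0.10 (adjusted p = 0.0056), HDAC11 at -0.32 ± 0.10 (adjusted p = 0.010) and HDAC6 at -0.20 ± 0.08 (adjusted p = 0.045). The HDAC6 call was lost in 19 of 29 alternatives, 16 of them leaving out a single library (-0.23 to -0.16, adjusted p up to 0.16). Without untreated WT U2OS replicate 1 the count was 3, where 38.0% of genes passed, and HDAC5 and HDAC11 no longer passed. In ID3-KO cells HDAC11 alone passed, at -0.27 ± 0.10 (adjusted p = 0.038), against 27.7% of genes. Its call was lost without any 1 of the 3 untreated U2OS ID3-KO libraries or untreated AID-DIvA ID3-KO replicate 1 or 2 (-0.32 to -0.21, adjusted p up to 0.21), while 4 members passed without untreated WT U2OS replicate 1, where 37.2% of genes did, and 2 without recovered WT AID-DIvA replicate 1 or untreated AID-DIvA ID3-KO replicate 3, where 27.5% and 26.8% did.

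Partner genes were followed in the 4 treatment comparisons, in the order WT AID-DIvA, ID3-KO AID-DIvA, WT U2OS and ID3-KO U2OS. The shares of all genes that passed are those given above for the members. The WT U2OS values of partner and class I genes include untreated replicate 1, which stood apart. Fits that leave out a library are given for the members only. Of the 4 MEF2 factors 1, 1, 1 and 3 rose and 1, 0, 1 and 0 fell. MEF2D rose from 74.5 ± 1.84 to 103 ± 4.53 CPM (SD) after recovery in WT cells (0.47 ± 0.05, adjusted p = 3.4e-06) and by 0.45 ± 0.08 in ID3-KO cells (adjusted p = 0.0018). MEF2C, at low levels, fell from 3.44 ± 0.397 to 2.02 ± 0.0659 CPM in WT U2OS cells (-0.76 ± 0.13, adjusted p = 0.0022) and rose from 0.580 ± 0.0951 to 1.87 ± 0.0272 CPM in ID3-KO U2OS cells (1.70 ± 0.18, adjusted p = 1.7e-08). The difference between these 2 responses was not tested. Of the 17 kinases known to phosphorylate class IIa enzymes 2, 2, 3 and 7 rose and 6, 4, 3 and 7 fell. CAMK2B, a calcium and calmodulin-dependent kinase, rose from 1.44 ± 0.615 to 13.4 ± 0.743 CPM in WT U2OS cells (3.22 ± 0.25, adjusted p = 4.1e-05) and from 1.12 ± 0.0954 to 12.5 ± 1.13 CPM in ID3-KO U2OS cells (3.48 ± 0.11, adjusted p = 9.1e-18).

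Of the 7 genes for 14-3-3 proteins 0, 0, 1 and 1 rose and 3, 3, 4 and 6 fell. YWHAQ fell from 543 ± 20.1 to 422 ± 24.2 CPM after recovery in WT cells (-0.36 ± 0.05, adjusted p = 3.4e-05), and SFN, the epithelial 14-3-3 protein, fell from 264 ± 4.18 to 107 ± 10.5 CPM in ID3-KO U2OS cells (-1.29 ± 0.05, adjusted p = 2.8e-15). Of the 10 corepressor partners 2, 1, 3 and 2 rose and 2, 1, 4 and 5 fell. NCOR1, the scaffold of the NCoR complex, fell from 110.4 ± 1.79 to 80.5 ± 2.82 CPM after recovery in WT cells (-0.45 ± 0.04, adjusted p = 2.5e-06) and by 0.39 ± 0.06 on the log2 scale in ID3-KO cells (adjusted p = 5.2e-04). Without recovery the ankyrin-repeat protein RFXANK had the largest change of this list, at -0.95 ± 0.15 in WT (adjusted p = 0.0015) and -0.75 ± 0.07 in ID3-KO U2OS cells (adjusted p = 1.1e-09).

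Of 8 genes described as repressed through class IIa enzymes, COL10A1 and SOST did not pass the filter on low counts. MMP10, a stromelysin, went from 0.145 ± 0.0907 to 2.40 ± 0.154 CPM in WT U2OS cells, and MMP13, a collagenase of hypertrophic chondrocytes, from 0.166 ± 0.0444 to 7.41 ± 0.318 CPM in ID3-KO U2OS cells. Both were near absent in untreated libraries and could pass the filter through the treated ones alone, so these values are a description, and no count or median is given for the list. KLF2, a flow-responsive transcription factor, rose by 0.87 ± 0.19 in WT (adjusted p = 0.0070) and 1.11 ± 0.11 in ID3-KO U2OS cells (adjusted p = 1.4e-08). NR4A1, an orphan nuclear receptor, rose by 1.09 ± 0.13 in WT (adjusted p = 3.9e-04) and 0.65 ± 0.06 in ID3-KO U2OS cells (adjusted p = 4.5e-09). The AP-1 subunit JUN rose by 0.63 ± 0.07 (adjusted p = 2.6e-04) and 0.54 ± 0.05 (adjusted p = 1.1e-08). After recovery KLF2 (0.50 ± 0.12, adjusted p = 0.011) and NR4A1 (0.63 ± 0.12, adjusted p = 0.0030) passed in ID3-KO cells, while neither passed in WT cells and JUN passed in neither genotype. The gene of this list that fell in U2OS cells was RUNX2, the osteoblast transcription factor that is also among the lineage markers above, by 1.53 ± 0.12 in WT (adjusted p = 3.8e-05) and 0.97 ± 0.06 in ID3-KO U2OS cells (adjusted p = 1.8e-12), whereas after recovery it rose by 0.43 ± 0.08 in ID3-KO cells (adjusted p = 0.0018) and stood at -0.09 ± 0.05 in WT cells (adjusted p = 0.19).

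Of 9 partners of HDAC6 3, 3, 1 and 1 rose and 2, 2, 3 and 5 fell. SQSTM1, the ubiquitin-binding autophagy receptor, rose from 126 ± 2.61 to 206 ± 9.60 CPM after recovery in WT (0.72 ± 0.05, adjusted p = 4.0e-08) and by 0.67 ± 0.08 in ID3-KO cells (adjusted p = 1.3e-04). TUBA1A, an alpha-tubulin, rose from 214 ± 5.11 to 420 ± 18.5 CPM in ID3-KO U2OS cells (0.98 ± 0.04, adjusted p = 5.3e-15). Of 10 genes of polyamine metabolism 5, 4, 6 and 8 rose and 0, 0, 0 and 1 fell. SAT1, the acetyltransferase that marks polyamines for export or breakdown, rose from 7.90 ± 1.05 to 27.2 ± 1.84 CPM in WT (1.79 ± 0.12, adjusted p = 1.6e-05) and from 4.55 ± 0.0350 to 21.1 ± 0.550 CPM in ID3-KO U2OS cells (2.22 ± 0.07, adjusted p = 6.9e-18). After recovery the largest passing changes of this list were those of PAOX in WT (0.45 ± 0.13, adjusted p = 0.012) and SMS in ID3-KO cells (0.39 ± 0.06, adjusted p = 4.6e-04). Of 4 acylation partners of HDAC11 3 passed the filter, and 0, 1, 1 and 1 rose and 1, 0, 2 and 2 fell. SHMT2, a demyristoylation substrate of HDAC11, fell by 0.51 ± 0.10 in WT (adjusted p = 0.0033) and 0.52 ± 0.05 in ID3-KO U2OS cells (adjusted p = 4.6e-09).

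For comparison, of the 4 class I genes HDAC1, HDAC2, HDAC3 and HDAC8, 3 rose and 1 fell in each U2OS treatment comparison. HDAC3, the catalytic subunit of the NCoR and SMRT complexes, rose from 61.9 ± 4.62 to 94.0 ± 3.76 CPM in WT (0.61 ± 0.08, adjusted p = 5.9e-04) and from 60.4 ± 1.498 to 96.3 ± 1.10 CPM in ID3-KO cells (0.68 ± 0.04, adjusted p = 3.4e-12), and HDAC8 fell by 0.50 ± 0.07 (adjusted p = 5.8e-04) and 0.38 ± 0.05 (adjusted p = 1.1e-06). After recovery 2 class I genes fell in WT cells, HDAC3 by 0.21 ± 0.05 (adjusted p = 0.0032) and HDAC8 by 0.15 ± 0.05 (adjusted p = 0.021), and none passed in ID3-KO cells with edgeR's quasi-likelihood test.

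The genes whose levels ran most like those of each member over the 24 libraries were ranked by Pearson's r of log2(CPM + 0.5) among 14171 genes. Genes with clone-based names were left out, as were genes overlapping the member by position, among them MAPK12 for HDAC10. These points share libraries, lines and treatment, so the values are descriptions. HDAC7 ran closest to KCTD15 (r = 0.996), USP21 (0.993) and DUS3L (0.991), HDAC6 to MAN2B2 (0.966), DCHS1 (0.957) and LRP1 (0.943), and HDAC11 to PPFIA3 (0.972), PQLC1 (0.969) and TIGD3 (0.967). For HDAC5 these were ITFG3 (0.945), FAM214B (0.927) and PTPRN (0.918), and for HDAC9 HCLS1 (0.930), MYH16 (0.926) and IKBKE (0.922). The members with the lowest counts had looser neighbours, PROX1 (0.861), SEMA6A (0.833) and RNF24 (0.830) for HDAC4 and HOMER3 (0.889), ZNF581 (0.889) and B4GALT7 (0.889) for HDAC10.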

How the data were processed

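RNA was measured in 24 libraries, 8 groups of 3 biological replicates. The authors made stranded total RNA libraries, aligned reads to hg19/GRCh37 with STAR and counted fragments per gene with featureCounts (versions not given in the sources used here). They deposited raw counts per gene, without pooling, and TPM values. The deposited counts from either strand were used for tests and the deposited TPM for comparing genes. Tests on them were run with edgeR 4.0.16 under R 4.3.3 (TMM, filterByExpr, robust quasi-likelihood fit, Benjamini-Hochberg adjustment over all tested genes, threshold 0.05). Each pairwise comparison used its own 6 libraries, interactions 12, comparisons between the sets 24. P-values set a group difference against the spread between biological replicates, which is estimated with information from all genes. Whether that spread includes differences between clones is not known. Alternatives were DESeq2 1.42.0, its size factors in edgeR, no low-count filter, reverse-strand counts, joint fits, a log2 threshold of 1, the replicate number as a block and leaving out each library. The edgeR steps were also run on simulated counts for some of the comparisons, with the same spread for all genes and no deviant library. That simulation does not bear on calls that turn on a single library. Named genes were the members, class I HDACs, ID3, the most changed passing gene of each partner list per treatment comparison (a selection is printed), every tested gene of the list of genes repressed through class IIa enzymes (chosen after their values were seen), and the 3 most similarly expressed genes per member with a mean of at least 1 CPM. Members, lists and rules were chosen with earlier results of these data known.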

Additional observations from a re-analysis of the deposited data

Results flagged for a closer look

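The responses below differed between groups by a test of the difference itself, the quasi-likelihood test of edgeR, adjusted by Benjamini-Hochberg. Between the genotypes of AID-DIvA cells, the HDAC9 response was larger in ID3-KO cells by 0.4537 on the log2 scale (adjusted p = 0.035). That call was lost in 11 of 17 alternatives (adjusted p up to 0.12). Between the recovered AID-DIvA set and the U2OS set without recovery, the WT responses differed by 1.3561 for HDAC7 (adjusted p = 4.3e-11), 1.0049 for HDAC9 (adjusted p = 4.2e-07), 0.8063 for HDAC10 (adjusted p = 0.0044) and -0.4761 for HDAC11 (adjusted p = 0.0065). The ID3-KO responses differed by -0.7588 for HDAC4 (adjusted p = 0.0015), 1.5361 for HDAC7 (adjusted p = 4.0e-12), 0.954 for HDAC9 (adjusted p = 1.1e-06), 0.8355 for HDAC10 (adjusted p = 0.0032) and -0.3824 for HDAC11 (adjusted p = 0.026). The recovery and the cell line label cannot be told apart in the last 9 values. In these tests between the sets 45.4% of 23087 genes passed in WT and 46.0% in ID3-KO cells. The ID3-KO call of HDAC11 was lost when any 1 of 6 libraries was left out. The HDAC10 values carry the limit of its overlap with MAPK12.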

How the results depend on the processing

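No log2 value of a member changed direction while called. Of the values of single genes under the settings other than leaving out a library, 518 kept their side of the threshold, 19 no longer passed and 9 passed newly, and without one library these counts were 1085, 64 and 27. The number of members passing, with the range over single libraries left out, was as follows. After recovery it was 5 (3 to 7) in WT and 2 (2 to 2) in ID3-KO AID-DIvA cells, and under treatment 3 (2 to 5) in WT and 7 (7 to 7) in ID3-KO U2OS cells. Between ID3-KO and WT it was 3 (2 to 5) in untreated and 0 (0 to 1) in recovered AID-DIvA cells, and 2 (0 to 6) in untreated and 4 (3 to 4) in treated U2OS cells. The interaction gave 1 (0 to 1) in AID-DIvA and 0 (0 to 4) in U2OS cells, the difference between the sets in response 4 (4 to 5) in WT and 5 (4 to 6) in ID3-KO cells, and that between untreated cells 5 (3 to 5) in WT and 1 (0 to 4) in ID3-KO cells. The share of all genes passing moved as well. Between untreated U2OS genotypes it was 6.02% without ID3-KO replicate 2, where 0 members passed, and 41.1% without WT replicate 1, where 6 did. In the U2OS interaction it was 9.03% without untreated WT replicate 1, where 4 members passed.

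With DESeq2 the count was 3 for WT recovery and 1 for the U2OS interaction, and without the filter on low counts 1 for the U2OS interaction. With all 4 groups of a line in one fit it was 3 for WT recovery, 5 for WT U2OS treatment, 1 between the recovered genotypes and 2 between the treated U2OS genotypes. With reverse-strand counts it was 2 for untreated ID3-KO AID-DIvA against U2OS. A log2 change beyond 1 left 0 for WT recovery, 1 for ID3-KO recovery, 1 for WT and 1 for ID3-KO U2OS treatment, and 0 between genotypes in untreated AID-DIvA, untreated U2OS and treated U2OS cells. Same-numbered replicates did not deviate together in every comparison (correlations from -0.30 to 0.184) and the labels give them no shared origin. With the replicate number as a block the count was 3 for WT recovery, 0 for the AID-DIvA interaction, and 3 in WT and 0 in ID3-KO cells for untreated AID-DIvA against U2OS, and its other counts stayed within 1.5 times. The causes of these shifts were not tested. Most of these counts are given without the share of all genes passing in the same fit and cannot be set against it. HDAC4 and HDAC10, with at most 396 and 327 counts per library, are the members whose precision low counts limit most. For HDAC10 the overlap with MAPK12 bears on the counts as well.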
